A study of Mus musculus with 2 samples.

Results

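The mitochondrial genome is described here through its 37 annotated genes, out of 54680 loci in the table. Its members are all loci placed on the mitochondrial chromosome (MT): 13 protein-coding genes, 2 ribosomal RNA genes and 22 transfer RNA genes. RNA was sequenced in 2 libraries, both from total RNA of CT26, an established cell line from a mouse colon carcinoma. The knockdown library came from CT26 cells infected with a lentivirus that carried a short hairpin RNA against Setdb1, a histone H3 lysine 9 methyltransferase. The empty-vector library, the control, came from CT26 cells of wild-type genotype, per the labels, infected with a lentivirus that carried the empty knockdown vector. Both cultures were grown for 6 days in RPMI medium with serum, and the labels call the knockdown cells differentiated. Each group had 1 library, so no difference below has a replicate check, no test between conditions was possible, and all values describe these 2 libraries. Whether the infected cells were a pool or a clone is not given in the sources used here.

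Mitochondrial DNA is a small circle that carries genes for core subunits of respiratory chain complexes I, III and IV and of ATP synthase (complex V), with the rRNAs and tRNAs needed to translate them. Both strands are transcribed as long precursors, most genes being read from 1 strand, and the tRNAs that lie between the other genes mark where the precursors are cut. Mitochondrial mRNAs of mammals mostly carry short poly(A) tails, while mature tRNAs do not. All other subunits of these complexes, and all proteins that transcribe, cut, stabilise and decay mitochondrial RNA, are made from nuclear genes. Nuclear chromosomes also hold old copies of stretches of mitochondrial DNA, and a read that matches both places equally well cannot be placed by its sequence.

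Setdb1, the targeted gene, had 1340 reads in the empty-vector library and 317 in the knockdown library, a read ratio of 0.229 (0.202 to 0.259). Read totals were 18421604 in the empty-vector library and 19045830 in the knockdown library. Here and below, a read ratio is knockdown over control, both scaled to the totals just given, and the range in brackets is its 95% exact binomial (Clopper-Pearson) interval. Intervals cover counting error only, not variation between cultures, since each group had 1 library. They may be too narrow even for counting error, because reads amplified by PCR are not independent molecules. Log2 ratios are of (FPKM + 1), knockdown over control, where FPKM is a fragment count divided by gene length and sequencing depth, and both libraries were divided by the same depth, so these ratios still carry the 1.03 ratio of the totals. Of 8 colon epithelial marker genes, 2 reached 1 FPKM in the empty-vector library and 3 in the knockdown library, and Epcam and Cdh1 had no reads in either. Their summed level was 43.2 FPKM in the control and 128 FPKM in the knockdown library, mostly Krt18 (37.7 and 90.02 FPKM) and Krt20 (5.07 and 35.6 FPKM), and the part of this in the mitochondrial values was not tested. All 5 mesenchymal marker genes reached 1 FPKM in both libraries, with summed levels of 1318 FPKM in the control and 1501 FPKM in the knockdown library. None of the 5 leukocyte or 2 endothelial marker genes did, the highest being Ptprc at 0.0117 FPKM in the knockdown library.

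Sequences come first, since shared sequence may bear on where reads were placed, which was not tested. Of the loci outside MT in the authors' list, 24 have the same protein match as a mitochondrial gene, and 7 of them lie side by side on the minus strand of chromosome 1, at chr1:24611535-24616197 in GRCm38. These 7 loci are annotated as unprocessed pseudogenes and follow the order of the mitochondrial genome from the end of mt-Co1 to the first part of mt-Nd4, positions 6381 to 11042 of MT. Their transcripts in GENCODE M21, aligned without gaps, matched the mitochondrial genes at 4142 of 4149 bases (99.8%), and 5 of the 7 were identical over their whole length. The offset between the 2 chromosomes was the same for 5 loci, and shifted by 1 base for the other 2. The first pair below shows the edge of the copy within mt-Co1, where capitals mark the bases that differ, written 5′ to 3′ on the strand of the gene.
mt-Co1, MT:6381-6440, plus strand: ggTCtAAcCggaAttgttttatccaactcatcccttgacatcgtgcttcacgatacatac
Gm29216, chr1:24616138-24616197, minus strand: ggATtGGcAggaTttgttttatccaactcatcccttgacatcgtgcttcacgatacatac
Counted from the first base of mt-Co1, the 6 differences are T1056A, C1057T, A1059G, A1060G, C1062A and A1066T, with the mitochondrial base first. From position 1067 to the end of mt-Co1 at position 1545, 479 bases, the copy is identical.

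The second pair shows the start of mt-Nd3, which holds the only other difference in the aligned loci, T3C in the start codon, again in capitals.
mt-Nd3, MT:9459-9518, plus strand: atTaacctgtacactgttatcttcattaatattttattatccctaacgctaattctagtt
Gm28438, chr1:24613060-24613119, minus strand: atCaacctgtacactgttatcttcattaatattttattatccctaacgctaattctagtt
The third pair shows the first 60 bases of mt-Co2, where no base differs, as along the rest of the aligned locus.
mt-Co2, MT:7013-7072, plus strand: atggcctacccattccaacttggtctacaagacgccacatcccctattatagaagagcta
Gm28661, chr1:24615506-24615565, minus strand: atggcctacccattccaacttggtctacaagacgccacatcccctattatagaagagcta

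Shared sequence was then measured for every mitochondrial gene as the share of its 60-base windows that occur, on either strand, in a GENCODE M21 transcript of another locus. It was 100% for mt-Co2, 99.9% for mt-Co3, 99.5% for mt-Atp6, 98.7% for mt-Nd4l and 97.9% for mt-Nd3. Shared windows made up 61.9% of mt-Nd4 and 46.5% of mt-Co1, where a copy on chromosome 2 adds to the one on chromosome 1. The share was 7.15% for mt-Nd2, 4.42% for mt-Nd5 and 0.394% for mt-Rnr2, and 0 for mt-Nd1, mt-Nd6, mt-Cytb and mt-Rnr1. With windows of 150 bases the shares were 99.4% for mt-Co2, 23.6% for mt-Co1 and 0 for mt-Nd2, mt-Nd5 and mt-Rnr2. mt-Atp8 and 5 tRNA genes lie within the same stretch, between annotated loci of the copy. The windows showed no shared sequence for these 6 genes, 0 of 145 windows for mt-Atp8, but only annotated transcripts were searched. Sequence of chromosome 1 between those loci was not compared, because a genome sequence was not used here.

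Levels per length followed position relative to the stretch, and mt-Atp8, within it but with no shared window found, had no reads. In the empty-vector library the 7 mRNAs that lie outside the stretch or reach beyond it were the 7 highest: mt-Co1 at 3735 FPKM, mt-Cytb at 1163, mt-Nd2 at 893, mt-Nd1 at 632, mt-Nd4 at 329, mt-Nd5 at 280 and mt-Nd6 at 178. The 6 mRNAs wholly within the stretch were the 6 lowest: mt-Co3 at 38.4 FPKM, mt-Atp6 at 33.6, mt-Co2 at 31.3, mt-Nd3 at 12.7, mt-Nd4l at 4.85 and mt-Atp8 with no reads, where a floor of 3 reads stands for 0.785 FPKM. The knockdown library held the same 7 and the same 6, with those 7 in the same order. Neighbours whose exact Poisson intervals overlapped were mt-Co3 with mt-Atp6 and mt-Atp6 with mt-Co2 in the empty-vector library, and mt-Nd4 with mt-Nd5, mt-Co2 with mt-Atp6 and mt-Nd4l with mt-Atp8 in the knockdown library. All 5 tRNA genes within the stretch (mt-Ts1, mt-Td, mt-Tk, mt-Tg and mt-Tr) had no reads in either library, against 6 of the 17 outside it. How reads with several matching places were treated is not given in the sources used here, and the part of shared sequence in these levels was not tested.

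**Figure D1:**
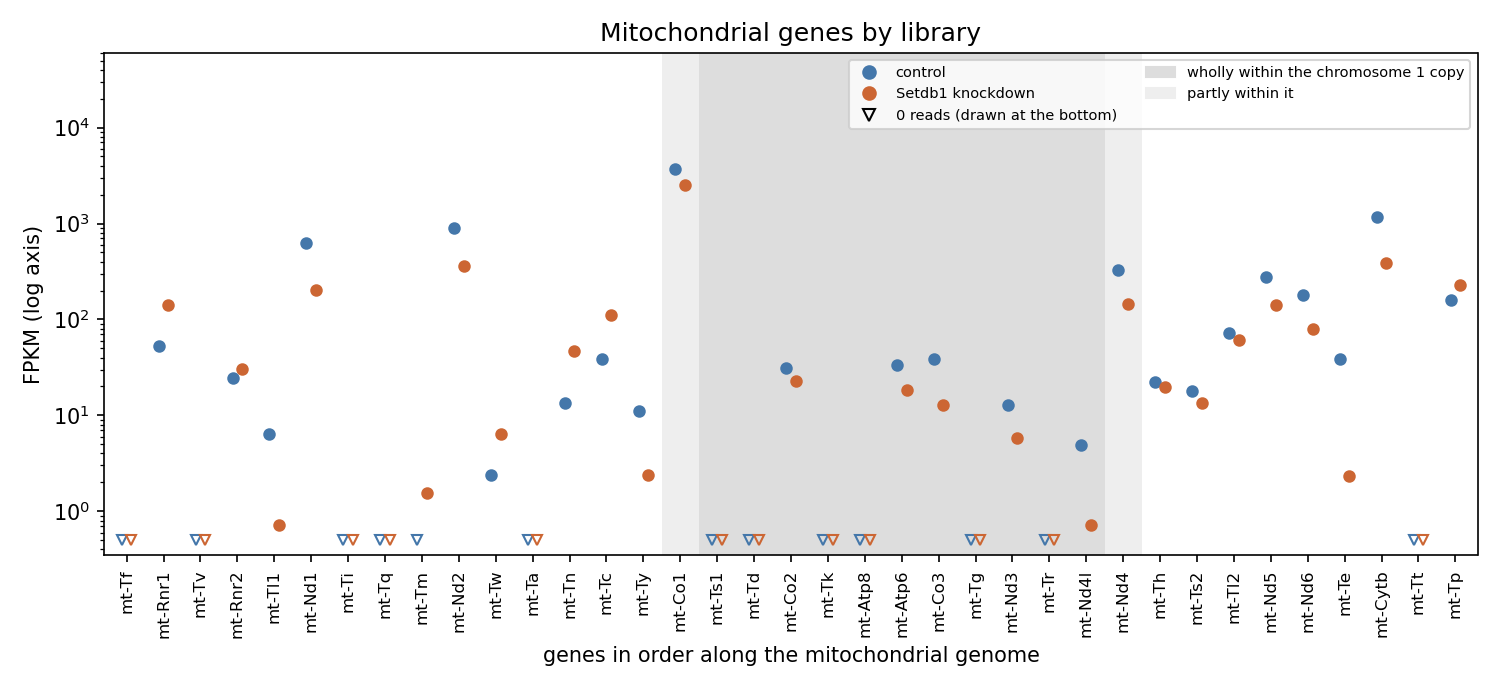
Level of each of the 37 mitochondrial genes (FPKM, log axis) in the empty-vector library and the Setdb1 knockdown library, 1 point per library, with genes in order along the mitochondrial genome and genes with 0 reads drawn as open triangles at the bottom. The mRNAs in the grey stretch, wholly within the copy on chromosome 1, lie at 38.4 FPKM or lower, while the other mRNAs with reads lie at 79.3 FPKM or higher in both libraries.

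**Figure D2:**
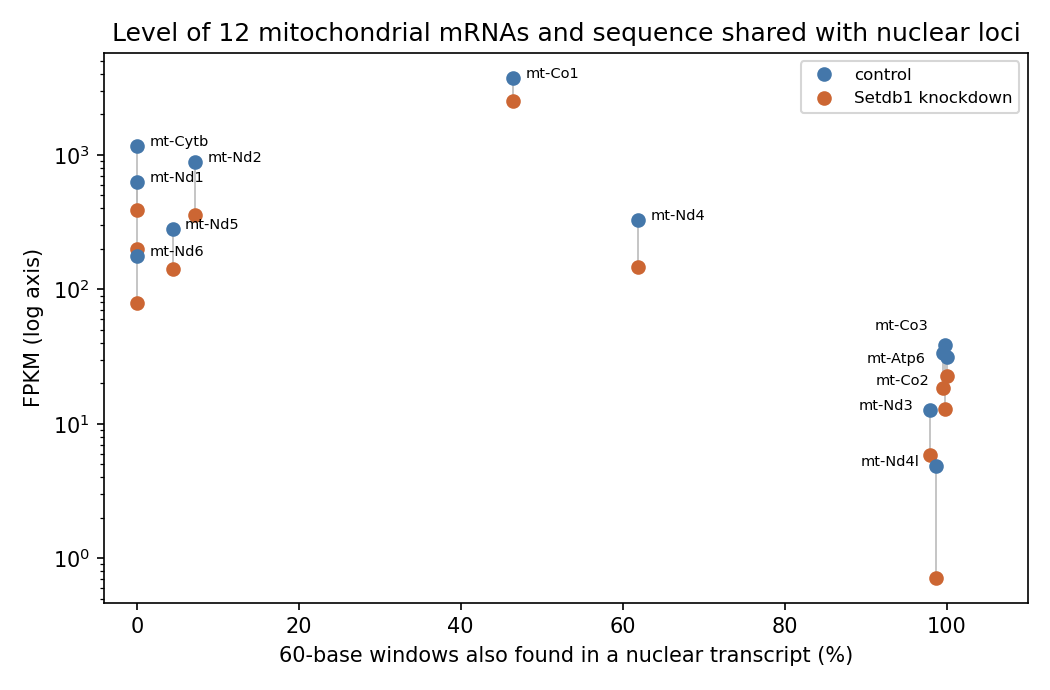
Level of 12 mitochondrial mRNAs (FPKM, log axis) against the percentage of their 60-base windows found in another annotated transcript, with a line joining the 2 libraries of a gene; mt-Atp8, with no reads, is left out. Genes with 97.9% or more shared windows lie below all others in both libraries, and the knockdown point is the lower one for every gene.

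Mitochondrial RNA took a smaller share of the knockdown library. The 37 genes held 185163 reads in the empty-vector library, 1.005% of all reads (1.001 to 1.010), and 106001 in the knockdown library, 0.557% (0.553 to 0.560). Protein-coding genes accounted for most of both, with 183000 and 101937 reads and a read ratio of 0.539 (0.535 to 0.543). In bulk RNA, fewer cells that make an RNA and less of it per cell cannot be told apart. All 12 mRNAs with reads were lower in the knockdown library, 8 of them at least 2-fold and 0 higher. Among those 8, mt-Co3, mt-Nd3 and mt-Nd4l had 97.9% or more of their 60-base windows in another annotated transcript. Such shared reads cannot be placed by sequence, and reads at the nuclear copies were not added to this count. Over the 10671 genes with 1 FPKM or more in at least 1 library, 50.0% were lower, 4.85% at least 2-fold lower and 6.81% at least 2-fold higher. Among the 564 genes at 100 FPKM or more in the empty-vector library, 61.0% were lower, 8.33% at least 2-fold lower and 4.96% at least 2-fold higher. That set is nearer in level to the 7 highest of these mRNAs, not to the others. It was chosen on the control value alone, which by itself can favour lower values in the other library. The median log2 ratio was -1.17 over the 12 mRNAs, against -0.000391 over the 10671 genes and -0.14 over the 564.

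Complex I, NADH dehydrogenase, takes 7 subunits from the mitochondrial genome, and all 7 were lower. mt-Nd1 (ENSMUSG00000064341, MT 2751 to 3707) went from 11328 reads in the empty-vector library to 3600 in the knockdown library, a read ratio of 0.307 (0.296 to 0.319). mt-Nd2 (MT 3914 to 4951) had 17369 reads in the control and 6937 in the knockdown library, a ratio of 0.386 (0.376 to 0.397). mt-Nd4 (MT 10167 to 11544) had 8504 reads against 3758, a ratio of 0.427 (0.411 to 0.444), and mt-Nd5 (MT 11742 to 13565) had 9566 against 4860, a ratio of 0.491 (0.475 to 0.509). These 4 genes hold most reads of the complex, and their intervals, which cover counting error only, do not overlap one another. Whether the size of the difference would vary among them in other cultures cannot be told from 1 library per group. mt-Nd6 (MT 13552 to 14070), the 1 protein-coding gene on the minus strand, had 1732 reads in the empty-vector library and 771 in the knockdown library, a ratio of 0.431 (0.395 to 0.469) that lies within the range of its plus-strand neighbours. Its last 14 bases overlap mt-Nd5. Whether counting used strand is not given in the sources used here, so reads of mt-Nd6 cannot be told from reads of the other strand. The 2 small subunits in the stretch shared with chromosome 1 had few reads: mt-Nd3 went from 83 to 38 (ratio 0.443, 0.293 to 0.658) and mt-Nd4l from 27 to 4 (0.143, 0.0364 to 0.411).

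Cytochrome b, the mitochondrial subunit of complex III, had the second highest level in both libraries. mt-Cytb (ENSMUSG00000064370, MT 14145 to 15288) went from 24913 to 8350 reads, 1163 to 390 FPKM, a log2 ratio of -1.57. Its read ratio of 0.324 (0.316 to 0.332) was close to that of mt-Nd1, at the other end of the coding region, and below those of mt-Nd2, mt-Nd4, mt-Nd5, mt-Nd6 and mt-Co1.

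Complex IV, cytochrome c oxidase, takes its catalytic core from mt-Co1, mt-Co2 and mt-Co3. mt-Co1 (ENSMUSG00000064351, MT 5328 to 6872) had 108084 reads in the empty-vector library and 72906 in the knockdown library, a read ratio of 0.652 (0.646 to 0.659) and a log2 ratio of -0.57. It was lower by less than 2-fold, unlike mt-Nd1, mt-Nd2, mt-Nd4, mt-Nd6 and mt-Cytb. mt-Co2 had a higher ratio than mt-Co1, and the other 10 mRNAs with reads a lower one. mt-Co1 made up 59.1% of mitochondrial mRNA reads in the empty-vector library (58.8 to 59.3) and 71.5% in the knockdown library (71.2 to 71.8), while mt-Cytb went from 13.6% to 8.19%. Without mt-Co1, the summed mRNA read ratio was 0.375 (0.370 to 0.380) in place of 0.539. mt-Co3 (MT 8607 to 9390) had 564 reads against 190, a ratio of 0.326 (0.275 to 0.385), and mt-Co2 (MT 7013 to 7696) 401 against 289, a ratio of 0.697 (0.597 to 0.813). The 3 genes thus ran from a ratio close to that of mt-Cytb to the highest of the mRNAs. However, the interval of mt-Co2 includes the ratio of mt-Co1, 0.652. Both mt-Co2 and mt-Co3 rest on few reads, and 100% and 99.9% of their 60-base windows occur in another annotated transcript. How reads were split between them and their nuclear copies is not known, and the part of this in their ratios was not tested.

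ATP synthase takes mt-Atp6 and mt-Atp8. mt-Atp6 (MT 7927 to 8607), a membrane subunit of the proton channel, had 429 reads in the empty-vector library and 234 in the knockdown library, a ratio of 0.528 (0.448 to 0.620). mt-Atp8 (MT 7766 to 7969) had no reads in either library, and 43 of its bases overlap mt-Atp6. No difference could be measured for it at this depth.

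**Figure D3:**
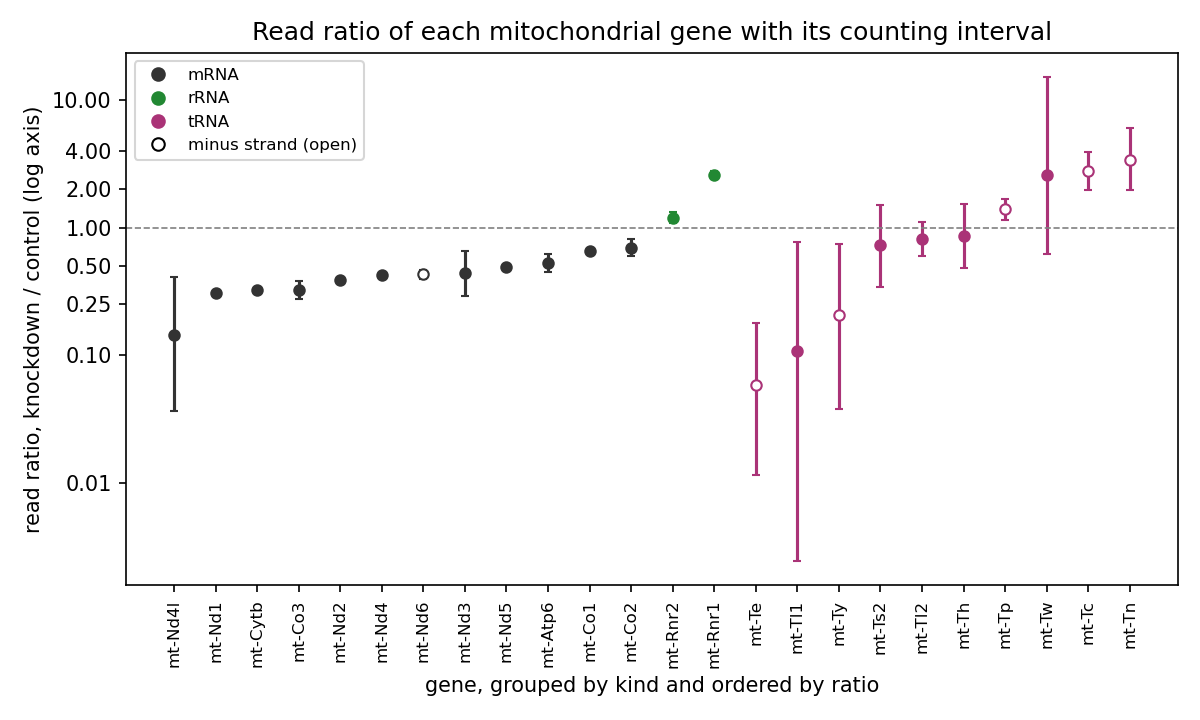
Read ratio of the 24 mitochondrial genes with reads in both libraries (knockdown over control, each relative to its library's total, log axis), with 95% exact binomial intervals as bars and open symbols for genes on the minus strand. All 12 mRNAs lie below 1, both rRNAs above 1, and the tRNAs spread from 0.0580 for mt-Te to 3.39 for mt-Tn.

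The lower mRNA level was measured in genes with and without shared sequence. The 5 mRNAs outside the stretch held 64908 reads in the empty-vector library and 24518 in the knockdown library, a ratio of 0.365 (0.360 to 0.371), and the 5 within it that had reads held 1504 and 755, a ratio of 0.486 (0.444 to 0.530). The 2 that are partly inside, mt-Co1 and mt-Nd4, held 116588 and 76664, a ratio of 0.636 (0.630 to 0.642). In the 3 mRNAs with reads and no shared 60-base window, mt-Nd1, mt-Nd6 and mt-Cytb (mt-Atp8, also with none, had no reads), the ratio was 0.324 (0.318 to 0.331). The nuclear copy itself had 1847 reads in the empty-vector library and 1869 in the knockdown library over its 7 loci, a ratio of 0.979 (0.917 to 1.04).

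The loci of the copy differed among themselves. Gm29216, the copy of the end of mt-Co1, was higher in the knockdown library, with 318 reads in the control against 773 and a ratio of 2.35 (2.06 to 2.69), while mt-Co1 itself was lower. Gm28437, the copy of mt-Co3, had 440 and 465 reads, a ratio of 1.02 (0.895 to 1.17), beside 0.326 for mt-Co3. Gm28438 (345 against 217 reads), Gm28661 (291 against 185) and Gm10925 (351 against 172), the copies of mt-Nd3, mt-Co2 and mt-Atp6, were lower, with ratios of 0.608, 0.615 and 0.474. Gm10222 and Gm28439, which fell outside the rule for named genes and were added after their values were seen, had 31 against 28 and 71 against 29 reads. The 2 other copies with reads held 4 and 8 reads in all, and 15 copies had none. Whether reads at these loci came from chromosome 1 or from mitochondria cannot be read from identical sequence.

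Mitochondrial rRNAs, the RNA of the organelle's ribosome, were higher in the knockdown library while the mRNAs were lower. mt-Rnr1 (ENSMUSG00000064337, MT 70 to 1024), the RNA of the small subunit, had 946 reads in the empty-vector library and 2534 in the knockdown library, or 52.9 and 142 FPKM, a read ratio of 2.59 (2.40 to 2.79). mt-Rnr2 (ENSMUSG00000064339, MT 1094 to 2675), the RNA of the large subunit, had 730 and 903 reads, or 24.6 and 30.5 FPKM, a ratio of 1.20 (1.08 to 1.32). The 2 intervals do not overlap, although only 1 tRNA gene, mt-Tv, separates these genes on the same strand. Summed, the rRNAs had a read ratio of 1.98 (1.87 to 2.10), or 3.68 relative to the mitochondrial mRNAs. Both rRNAs had lower levels per length than mt-Nd1 just after them, which was at 632 FPKM in the control and 201 FPKM in the knockdown library. Whether poly(A) RNA was selected or rRNA removed is not given in the sources used here. Among 8 nuclear RNAs without a poly(A) tail, 6 had no reads in either library, and Rn7sk, the RNA that holds the elongation factor P-TEFb, went from 16 to 52 reads (ratio 3.14, 1.77 to 5.90). Their summed reads were 21 in the empty-vector library and 59 in the knockdown library. All loci typed as snoRNA had 359 reads against 314 (ratio 0.846, 0.725 to 0.987), and those typed as snRNA 73 against 109 (1.44, 1.06 to 1.97). Loci typed as misc_RNA had 34 against 104 (2.96, 1.99 to 4.50), and those typed as miRNA 16513 against 13906 (0.815, 0.796 to 0.833). Overlap of these types with the 8 RNAs above was not assessed. Of 4 nuclear-retained long RNAs, Malat1 had 1015 reads in the control and 976 in the knockdown library, a ratio of 0.930 (0.851 to 1.02). Neat1, outside the rule for named genes and added after its value was seen, had 270 reads against 910, a ratio of 3.26 (2.84 to 3.75), and the summed ratio of the 4 was 1.42 (1.32 to 1.52). The part of RNA selection or RNA quality in the rRNA values was not tested.

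tRNA genes had 487 reads in the empty-vector library and 627 in the knockdown library, a summed ratio of 1.25 (1.10 to 1.40). Of the 22 genes, 11 had no reads in either library, a floor of 3 reads standing for 2.46 FPKM in the shortest of them, mt-Tk. Of the 11 with reads, all reached 1 FPKM in at least 1 library. Of these, 6 were lower and 5 higher, beside 50.0% lower and 49.6% higher among all genes. Genes with few reads are counted here, such as mt-Tm with 0 and 2, below that floor. mt-Tp alone held 200 of the tRNA reads in the control and 287 in the knockdown library. Without mt-Tp the summed ratio was 1.15 (0.976 to 1.35), an interval that includes 1. Mature tRNAs are short, so these reads may be of tRNAs, of precursors or of fragments that run into a neighbouring gene, which counts per gene do not tell apart.

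On the minus strand 5 of 8 tRNA genes had reads, 3 of them higher and 2 lower, beside 49.6% higher and 50.0% lower among all genes. The 4 tRNAs with most reads among those whose interval leaves out 1 are shown whole, 5′ to 3′ on their own strand, with the anticodon in capitals.
mt-Tn, asparagine, MT:5089-5159, minus strand: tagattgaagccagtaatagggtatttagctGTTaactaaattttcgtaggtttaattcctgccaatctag
mt-Tc, cysteine, MT:5192-5257, minus strand: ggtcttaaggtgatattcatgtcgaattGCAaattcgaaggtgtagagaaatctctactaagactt
mt-Te, glutamic acid, MT:14071-14139, minus strand: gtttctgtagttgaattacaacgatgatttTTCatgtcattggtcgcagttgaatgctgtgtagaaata
mt-Tp, proline, MT:15356-15422, minus strand: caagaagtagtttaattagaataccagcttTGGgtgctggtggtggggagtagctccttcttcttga
None of these 4 holds a 60-base window found in another annotated transcript.

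mt-Tn and mt-Tc, separated by 32 bases where the light strand of mitochondrial DNA starts to be copied, were both higher in the knockdown library. mt-Tn had 18 reads in the control and 63 in the knockdown library, a ratio of 3.39 (1.98 to 6.08), and mt-Tc had 48 and 138, a ratio of 2.78 (1.99 to 3.95). mt-Ty, which follows mt-Tc after 2 bases, went the other way, from 14 to 3 reads (ratio 0.207, 0.0382 to 0.743). mt-Tp, the last annotated gene before the control region, had 200 and 287 reads, a ratio of 1.39 (1.15 to 1.67). mt-Te had the lowest ratio of the members with reads in both libraries, with 50 reads in the empty-vector library and 3 in the knockdown library, or 38.7 and 2.32 FPKM, a ratio of 0.0580 (0.0116 to 0.180). It adjoins mt-Nd6 on the same strand with no base between them, and its interval lies below that of mt-Nd6, 0.395 to 0.469. Summed over the minus-strand tRNAs, reads were 330 and 494 (ratio 1.45, 1.26 to 1.67). With mt-Nd6 added, all 9 minus-strand genes had 2062 and 1265 reads, a ratio of 0.593 (0.553 to 0.637), so the sum follows mt-Nd6.

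Plus-strand tRNAs had 157 reads in the empty-vector library and 133 in the knockdown library, a ratio of 0.819 (0.645 to 1.04). The cluster of mt-Th, mt-Ts2 and mt-Tl2, between mt-Nd4 and mt-Nd5, held most of them. mt-Tl2, for leucine, had 97 and 82 reads (ratio 0.818, 0.602 to 1.11), mt-Th, for histidine, 28 and 25 (0.864, 0.483 to 1.54), and mt-Ts2, for serine, 20 and 15 (0.725, 0.346 to 1.49). No difference was detectable in any of these 3 at this depth. The lower bound for mt-Tl2 lies above the ratios of mt-Nd4 and mt-Nd5 on either side of the cluster, 0.427 and 0.491. mt-Tl1, between mt-Rnr2 and mt-Nd1, had 9 reads in the control and 1 in the knockdown library (ratio 0.107, 0.00245 to 0.776). mt-Tw had 3 and 8 reads (2.58, 0.619 to 15.1), and mt-Tm 0 and 2.

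Nuclear genes for the same complexes had nearly the same summed reads in both libraries. All 75 nuclear respiratory chain genes of the list reached 1 FPKM, 48 of them higher and 27 lower, beside 49.6% higher and 50.0% lower among all genes. A 2-fold difference was reached upwards by 2, beside 6.81% of all genes, and downwards by 0, beside 4.85%, with a median log2 ratio of 0.14. Their summed reads were 252412 in the empty-vector library and 254366 in the knockdown library, a ratio of 0.975 (0.969 to 0.980), beside 0.539 for the mitochondrial mRNAs. For complex I the mitochondrial genes had a summed ratio of 0.397 (0.391 to 0.404), and the 36 nuclear genes 1.05 (1.04 to 1.07). For complex III the ratios were 0.324 and 0.9505 (9 nuclear genes), for complex IV 0.651 and 0.971 (11 nuclear genes) and for complex V 0.528 and 0.938 (15 nuclear genes). These sums lean on genes with many reads. mt-Co1 held 108084 of 109049 mitochondrial complex IV reads in the control, and mt-Atp6 all those of complex V. Atp5b held 55051 of 115340 nuclear complex V reads in the control and 46661 of 111816 in the knockdown library. By gene, 5 of the 9, 7 of the 11 and 10 of the 15 were higher, beside 49.6% of all genes. Complex II, succinate dehydrogenase, has no mitochondrial gene, and its 4 nuclear genes had a ratio of 1.04 (1.02 to 1.07), from 0.952 for Sdha and 1.04 for Sdhb to 1.09 for Sdhc and 1.10 for Sdhd.

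Single nuclear subunits ran in both directions. In complex I, Ndufv3 had the highest log2 ratio at 1.62 (1015 reads in the control, 3215 in the knockdown library), then Ndufa12 at 0.74, and the lowest were Ndufa6 at -0.77 (899 and 514 reads) and Ndufa10 at -0.45. In complex III, Uqcrb was highest at 1.08 (262 and 571 reads), then Uqcrc1 at 0.42, and Uqcrq lowest at -0.84 (4701 and 2617 reads), before Uqcr10 at -0.30. Complex IV had a narrower range, from Cox8a at -0.21 and Cox4i1 at -0.14 to Cox5b at 0.38 and Cox6c at 0.43. In complex V, Atp5k was at 0.67 and Atp5h at 0.44, and Atp5g1 was at -0.65 and Atp5b at -0.24. The protein match of Uqcrb, Cox6c and Atp5g1 is shared by 6 loci each and that of Atp5h by 10, so reads may have been split among copies for these genes.

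**Figure D4:**
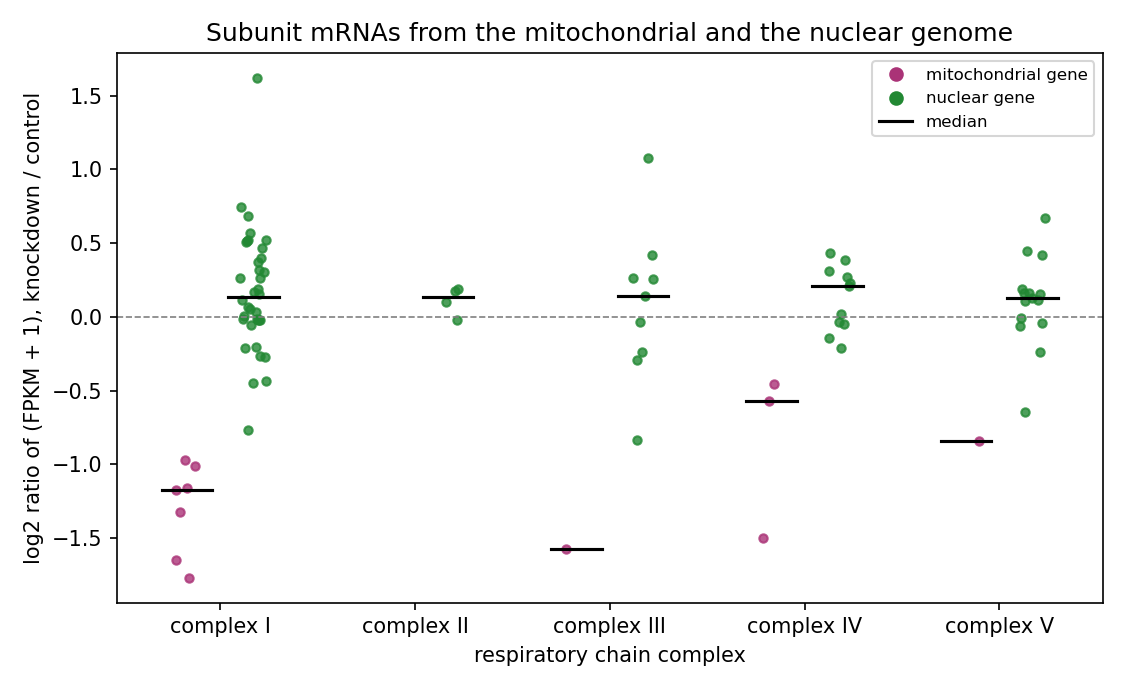
Log2 ratio of (FPKM + 1), knockdown over control, for each subunit gene with reads, by respiratory chain complex, with mitochondrial and nuclear genes side by side and the median of each as a bar. The 12 mitochondrial genes lie at -0.46 or lower, and the nuclear medians lie between 0.13 and 0.21.

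Nuclear genes for mitochondrial transcription and RNA metabolism were mostly lower, with a median closer to 0 than that of the mitochondrial mRNAs. Of 47 genes in 4 lists, 40 reached 1 FPKM, 30 of them lower and 10 higher, beside 50.0% lower among all genes. On the log2 (FPKM + 1) scale 1 was at least 2-fold lower, Lrpprc, beside 4.85% of all genes, and 0 at least 2-fold higher, beside 6.81%. That scale understates differences of low genes: by read ratio 8 of the 40 were at least 2-fold lower, beside 9.60% of all genes, and 0 at least 2-fold higher, beside 10.3%. The median log2 ratio was -0.29 and the summed read ratio 0.839 (0.825 to 0.853). Among genes for transcription and copying of mitochondrial DNA, 10 of 11 were lower, with a median of -0.24. The lowest 2 at 5 FPKM or more were Mgme1, a nuclease that trims mitochondrial DNA (-0.77, 366 and 188 reads), and the DNA helicase gene Twnk (-0.28). The highest 2 at that level were Polg, the replicating DNA polymerase (-0.08), and Polrmt, the mitochondrial RNA polymerase (-0.22, 1512 and 1290 reads). Genes under 5 FPKM, added after their values were seen, reached further in both directions. Tfb2m was the lowest of the list at -0.78, with 142 and 61 reads (read ratio 0.415, 0.303 to 0.565). Mterf4 was the 1 higher gene at 0.37, with 280 and 391 reads (1.35, 1.16 to 1.58).

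For RNA processing, 3 of 5 genes were lower, near the 50.0% of all genes, with a median of -0.51. Elac2, which cuts precursors at the 3′ end of tRNAs, had 1385 reads in the control and 718 in the knockdown library (log2 ratio -0.89), while Ptcd1 (0.24) and Hsd17b10, a subunit of the enzyme that cuts at the other end (0.26), were higher. The other subunits of that enzyme were lower by read ratio. Trmt10c had 107 and 58 reads (0.524, 0.374 to 0.728), and 1110008L16Rik, or Prorp, 209 and 113 (0.523, 0.412 to 0.661). Both were under the 5 FPKM of the rule for named genes and added after their values were seen. For RNA stability and decay, 12 of 14 were lower, beside 50.0% of all genes, with a median of -0.41. Lrpprc, which binds and stabilises mitochondrial mRNAs, was at -1.20, with 1441 and 537 reads and a read ratio of 0.360 (0.326 to 0.398), and its protein match is shared by 5 loci. Fastkd2, under the 5 FPKM of the rule for named genes and added after its value was seen, had a lower read ratio, 0.259 (0.185 to 0.357), with 183 and 49 reads. Rexo2, an exonuclease for short RNA, was at -0.57, Ptcd2 at -0.13 and Fastk at 0.33. Genes for modification of mitochondrial rRNA and tRNA were split, 5 lower and 5 higher, with a median of -0.06. That is near the shares of all genes, 50.0% lower and 49.6% higher. They ran from Mrm3 at -0.42 through Mrm1 at 0.05 and Mto1 at 0.21 to Mrm2 at 0.32 among those at 5 FPKM or more. Under 5 FPKM, and added after their values were seen, Tfb1m and Trnt1 were more than 2-fold lower by read ratio. Tfb1m, the lowest of the list at -0.95, had 286 and 115 reads (0.389, 0.310 to 0.485), and Trnt1 had 232 and 108 (0.450, 0.355 to 0.568). Whether these genes had a part in the mitochondrial RNA levels was not tested.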

How the data were processed

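RNA was sequenced from 1 control and 1 Setdb1 knockdown culture of CT26 cells, from libraries made with a NEBNext Ultra kit, per the labels. The authors deposited FPKM values. HISAT2, featureCounts 1.5.0-p3, CASAVA and the build GRCm38 are named in the submitters' processing notes, with no role or order. All 37 mitochondrial genes had the same place and strand in GENCODE M21 (GRCm38). Reads were recovered by multiplying each FPKM by the gene length and dividing by the smallest step in the values, and 100% of values above 0 came out whole in both libraries (tolerance 0.01 reads). From these, log2 ratios with a pseudocount of 1, read ratios and 95% exact binomial intervals were computed. Only genes that reached 1 FPKM in either library were counted, and a call was a 2-fold difference. No p-value was computed, as neither group had a second library. Ratios and intervals were tested on simulated Poisson counts. These held no PCR copies and no variation between cultures, so that test could not check how the intervals hold under either.

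The rule for named genes took all mitochondrial genes, Setdb1, nuclear copies with 100 reads or more, and the 2 highest and 2 lowest members at 5 FPKM or more of each of 11 lists. The members and lists were chosen with earlier results of these data known. For symbols found at more than 1 locus, the locus with most reads stood for the gene. The tools were Python 3.11.15, scipy 1.17.1, numpy 2.4.6, pandas 2.3.3 and matplotlib 3.10.9.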

Additional observations from a re-analysis of the deposited data

How the results depend on the processing

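Of 87 alternative values, 66 moved by less than counting error, or by less than 1.5 times for a count, and 0 reversed. Of 310 values of single genes under another pseudocount or scaling, added after seeing the data, 293 stayed within counting error and 0 reversed. Both tallies include alternatives that could not move. Scaling by the median of gene ratios had a factor of 1, so log2 ratios and their counts equalled the main values. That held for each of the 62 single genes. The mRNA read ratio was 0.557 relative to the median of gene ratios and 0.543 with nuclear copies added. In comparisons added after seeing the data it was 0.375 without mt-Co1 and 0.324 over mRNAs with reads and no shared 60-base window, where the median log2 ratio was -1.57. Relative to mitochondrial mRNAs, the rRNA ratio was 3.68 and the tRNA ratio 2.31, since those mRNAs are lower. The mitochondrial share, 1.005% in the control and 0.557% in the knockdown library, was 1.04% and 0.575% of protein-coding and mitochondrial reads, 1.02% and 0.566% with nuclear copies, and 0.418% and 0.174% without mt-Co1. Over all genes, a pseudocount of 0.1 gave 870 lower and 1134 higher, and a threshold of 1.5-fold 1523 and 1804, in place of 518 and 727. Read ratios without a pseudocount, added after seeing the data, gave 1024 lower and 1098 higher, and 8 of the 40 nuclear genes for mitochondrial RNA at least 2-fold lower in place of 1 (5 with a pseudocount of 0.1), since a pseudocount of 1 shrinks low genes. Scaling by own totals, the upper quartile or reads outside MT, and read ratios, gave 9 mRNAs at least 2-fold lower in place of 8. For the moves with no reason beside them, the cause was not tested. No paired analysis was possible because neither group had more than 1 library, which also kept any library from being left out. mt-Atp8 and 11 tRNA genes had no reads, so depth allowed no ratio for them.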
